A study of Mus musculus with 9 samples.

Results

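The 2 mature arms of the miR-126 hairpin, mmu-miR-126-3p and mmu-miR-126-5p, were followed through small RNA libraries of mouse embryos at embryonic day 9.5. They were taken by name as 2 of the 986 rows of mature miRNAs that were left after duplicate rows had been merged. The embryos belonged to an allelic series of miR-17~92, a cluster of miRNA genes whose members had been deleted singly or together. Of each of 8 genotypes 1 library was made: wild type with the full cluster, deletion of miR-92 (ΔmiR-92), miR-19 (ΔmiR-19), miR-18 (ΔmiR-18) or miR-17 (ΔmiR-17) alone, the joint deletions ΔmiR-17,18 and ΔmiR-17,18,92 (the latter titled 19-only), and knockout of the whole cluster, here called the full deletion. All were labelled female and whole embryo, but heart and tail bud were cut away before RNA was extracted. Neither the number of embryos behind a library nor the zygosity of the alleles is given in the labels. The deletions are named as in the labels and may take in further members of a family, as that of miR-17 did miR-20a-5p.

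miR-126 is known as an miRNA of endothelial cells, the lining of blood vessels. Its hairpin lies in Egfl7, a gene for a protein that endothelial cells secrete, and is made from the same transcripts. Dicer cuts the hairpin into a duplex of a 5p and a 3p strand, and an Argonaute protein keeps either strand, usually with a preference for one side. In vessels the 3p arm is known to repress Spred1 and Pik3r2, which dampen signalling from VEGF, a growth factor for vessels, and the 5p arm is known to repress Dlk1, an inhibitor of Notch signalling.

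The sequences below, from the RefSeq table of GRCm38.p6, show where the 3p arm sits in its hairpin, its seed, and the opposite-strand miRNA with which it could be confused. In the hairpin, capitals mark the 3p arm at bases 46 to 67 of 73, counted from the 5′ end. In the mature sequences, capitals mark the seed, bases 2 to 8, which pairs with targets.
Mir126a hairpin: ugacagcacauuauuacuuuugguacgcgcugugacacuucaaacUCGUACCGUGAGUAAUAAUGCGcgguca
miR-126a-3p: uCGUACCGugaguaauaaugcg
miR-126b-5p: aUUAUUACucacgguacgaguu
miR-126b-3p: cGCGUACCaaaaguaauaaugug

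The deposited name mmu-miR-126-3p was taken for miR-126a-3p of that table. The seed CGUACCG was carried by 1 of its 1679 mature miRNAs, miR-126a-3p itself, so the arm had no seed family there. miR-126-5p is named only. In the GENCODE annotation of GRCm38, which is not the build of the deposited table, Egfl7 lies on the plus strand of chromosome 2, 26580014 to 26593120, and Mir126a at 26591357 to 26591429. The hairpin was intronic in 8 of the 9 Egfl7 transcripts that span it and exonic in 1 transcript with a retained intron. Mir126b lies across it on the minus strand, 26591363 to 26591420, and miR-126b-5p is complementary to miR-126a-3p over an unbroken 19 bases. The sources used here do not say whether the counting used strand. Reads of the opposite strand thus cannot be told apart from those of the arms, and miR-126b was not analysed here. Elsewhere in the data some differently named hairpins had equal values with the arms swapped, such as miR-374-5p and miR-374c-3p. Whether strand was ignored in counting was not tested.

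The 8 libraries held between 6564461 and 18481223 reads of mature miRNAs. Levels are given in nRPM, the deposited normalised reads multiplied by 1 constant that brings an average library to the scale of RPM. The deleted miRNAs, read as a check of the labels, were low where they had been deleted. miR-17-5p stood at 180 nRPM or less in the 4 libraries without it and at 17331 or more in the 4 with it. The corresponding bounds were 72.6 and 3446 nRPM for miR-18a-5p, 15.1 and 3157 for miR-19a-3p, and 1.26 and 501.8 for miR-92a-1-5p. miR-20a-5p, which no label names, was also lower with loss of miR-17 (fitted log2 -9.25, from the limma model described below).

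Both arms were abundant in every library, and the 3p arm had more reads than the 5p arm in 8 of 8 libraries. miR-126-3p ranked between 15th (ΔmiR-17,18) and 35th (ΔmiR-17,18,92) of all 986 rows by level, and miR-126-5p between 54th (ΔmiR-92) and 111th (ΔmiR-17,18,92). The 3p arm took between 0.637% of a library (ΔmiR-18) and 1.4% (ΔmiR-17,18). The 5p arm took between 0.154% (ΔmiR-17,18,92) and 0.507% (ΔmiR-92). Since whole bodies without heart and tail bud were ground, fewer endothelial cells and less miR-126 per cell cannot be told apart in these levels.

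For the 3p arm wild type gave 51375 reads, ΔmiR-92 58644, ΔmiR-19 88036, ΔmiR-18 117782, ΔmiR-17 132447, ΔmiR-17,18 130129, ΔmiR-17,18,92 87372 and the full deletion 116038. After scaling, miR-126-3p stood at 8047 nRPM in wild type (95% exact Poisson interval 7977 to 8117), 8393 in ΔmiR-92, 9260 in ΔmiR-19, 7349 in ΔmiR-18 and 9812 in ΔmiR-17. The full deletion stood at 12180 nRPM, ΔmiR-17,18 at 14901 and ΔmiR-17,18,92 at 6053. ΔmiR-17,18 and the full deletion thus lay above the other 6 libraries, and ΔmiR-17,18,92 below them. The mean over the 8 genotypes was 9499 ± 2837 nRPM (SD, n = 8) and the highest level was 2.46 times the lowest.

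For the 5p arm wild type gave 17068 reads, ΔmiR-92 33284, ΔmiR-19 21191, ΔmiR-18 40293, ΔmiR-17 47458, ΔmiR-17,18 23207, ΔmiR-17,18,92 19023 and the full deletion 38380. miR-126-5p stood at 2673 nRPM in wild type (interval 2633 to 2714), 4763 in ΔmiR-92, 2229 in ΔmiR-19, 2514 in ΔmiR-18 and 3516 in ΔmiR-17. The full deletion stood at 4029 nRPM, ΔmiR-17,18 at 2657 and ΔmiR-17,18,92 at 1318. The lowest library was the same as for the 3p arm, but the highest was ΔmiR-92, where the 3p arm was near its wild-type level. The mean was 2962 ± 1089 nRPM (SD, n = 8) and the highest level was 3.61 times the lowest, or 2.14 times without ΔmiR-17,18,92.

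**Figure D1:**
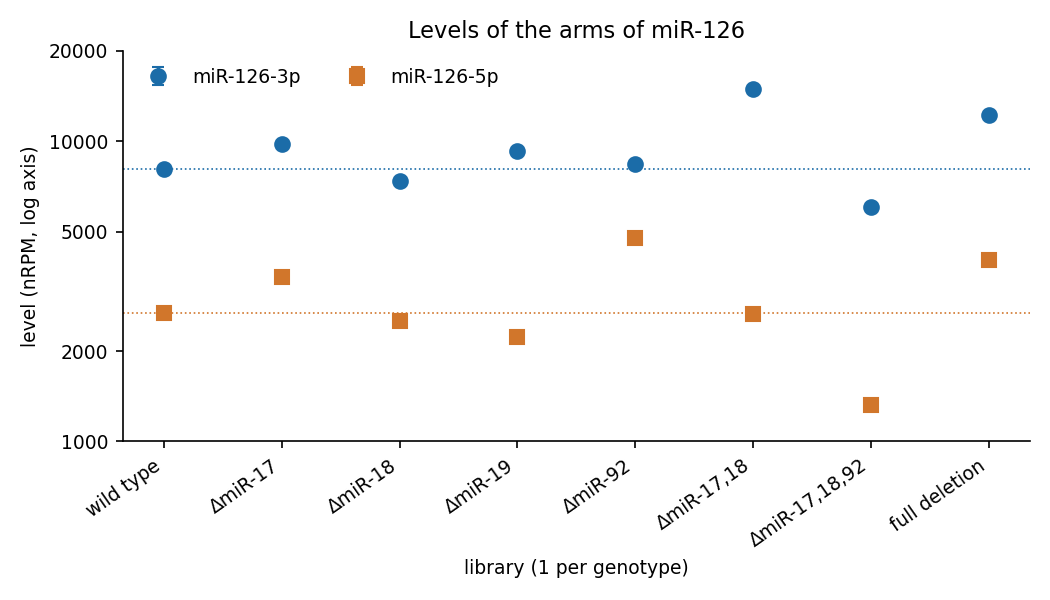
Levels of miR-126-3p (circles) and miR-126-5p (squares) in nRPM on a log axis, 1 library per genotype; bars are 95% exact Poisson intervals, mostly smaller than the symbols, and dotted lines mark wild type. Both arms are lowest in ΔmiR-17,18,92 (6053 and 1318 nRPM), while the highest library is ΔmiR-17,18 for 3p (14901 nRPM) and ΔmiR-92 for 5p (4763 nRPM).

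From low to high, the 3p arm was ordered ΔmiR-17,18,92, ΔmiR-18, wild type, ΔmiR-92, ΔmiR-19, ΔmiR-17, full deletion and ΔmiR-17,18, and no neighbours had overlapping counting intervals. The order for the 5p arm was ΔmiR-17,18,92, ΔmiR-19, ΔmiR-18, ΔmiR-17,18, wild type, ΔmiR-17, full deletion and ΔmiR-92. There the intervals of ΔmiR-17,18 and wild type overlapped. These intervals cover counting error only. No genotype had a replicate, so the spread between embryos of 1 genotype is not known and no neighbours in either order can be said to differ beyond it.

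Among all miRNAs averaging 100 nRPM or more, most of them less abundant than the arms, the 3p arm had a range near the middle and the 5p arm one above it. Of these 329 miRNAs, 54.4% had a smaller range over the 8 libraries than miR-126-3p and 77.8% a smaller range than miR-126-5p. The median miRNA ranged 2.36-fold.

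The comparison of each mutant with wild type asks whether loss of miR-17~92 members went with a change in miR-126, and it sets 1 library against 1. The 3p arm stood at 1.85 times wild type in ΔmiR-17,18 (95% exact conditional interval 1.83 to 1.87), 1.51 in the full deletion, 1.22 in ΔmiR-17 and 1.15 in ΔmiR-19. It was near wild type in ΔmiR-92, at 1.04, and lower in ΔmiR-18 (0.913) and ΔmiR-17,18,92 (0.752). The 5p arm stood at 1.78 times wild type in ΔmiR-92 (1.75 to 1.82), 1.51 in the full deletion and, for ΔmiR-17, 1.32. It was close to wild type for ΔmiR-17,18 (0.994) and ΔmiR-18 (0.940). Its lowest ratios were 0.834 in ΔmiR-19 and 0.493 in ΔmiR-17,18,92 (0.483 to 0.503). Both arms exceeded wild type in the full deletion and ΔmiR-17 and were below it in ΔmiR-17,18,92 and ΔmiR-18 under all 5 scalings tried. With plain read totals, however, the 3p arm of ΔmiR-17,18,92 was close to wild type, at 0.974. ΔmiR-18, at 0.877, was then the lowest library for the 3p arm, so that place depends on the scaling. In ΔmiR-19 the 3p arm was above and the 5p arm below wild type under all 5. The 3p arm of ΔmiR-92 turned to 0.981 with TMM factors, and the 5p arm of ΔmiR-17,18 to 1.04 with plain read totals and 1.02 with median-ratio factors.

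By size alone, miR-126-3p was 2-fold or more away from wild type in 0 of the 7 mutants and miR-126-5p in 1 of 7, ΔmiR-17,18,92. Differences of that size were common among miRNAs averaging 100 nRPM or more. They made up 26.1% of them in ΔmiR-17,18, 19.1% when the whole cluster was gone, and 17.9% in ΔmiR-17,18,92. Of the single deletions, ΔmiR-18 had 15.8%, ΔmiR-92 had 15.5%, ΔmiR-19 had 10.3% and ΔmiR-17 had 8.51%. In ΔmiR-17,18,92, 10.3% were lower by 2-fold or more, as the 5p arm was. With plain read totals that ratio was 0.638, and the single 5p difference of this size was instead ΔmiR-92, at 2.10. That scaling shifts the median of the 329 miRNAs, by log2 0.37 in ΔmiR-17,18,92 and 0.24 in ΔmiR-92, against 0.00 in both with the authors' factors. The authors' factors matched median-ratio factors, which bring such a median near 0 by construction, so this favours neither scaling.

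The arms did not keep a fixed proportion. The ratio of 3p to 5p reads, which no scaling between libraries can change, was 3.01 in wild type (95% exact interval 2.96 to 3.06), 3.02 in the full deletion, 2.92 in ΔmiR-18 and 2.79 in ΔmiR-17. It was 5.61 in ΔmiR-17,18 (5.53 to 5.69), 4.59 in ΔmiR-17,18,92 and 4.15 in ΔmiR-19, and 1.76 in ΔmiR-92 (1.74 to 1.79). As a share of the reads of both arms, 3p made up 63.8% in ΔmiR-92, 75.1% in wild type and 84.9% in ΔmiR-17,18. Wild type, the full deletion, ΔmiR-17 and ΔmiR-18 thus lay close together, 3 libraries lay above them and ΔmiR-92 below. The intervals of wild type and the full deletion overlapped, and no other neighbours did. The ratio ranged 3.18-fold, or 2.01-fold without ΔmiR-92, with a mean of 3.48 ± 1.22 (SD, n = 8).

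**Figure D2:**
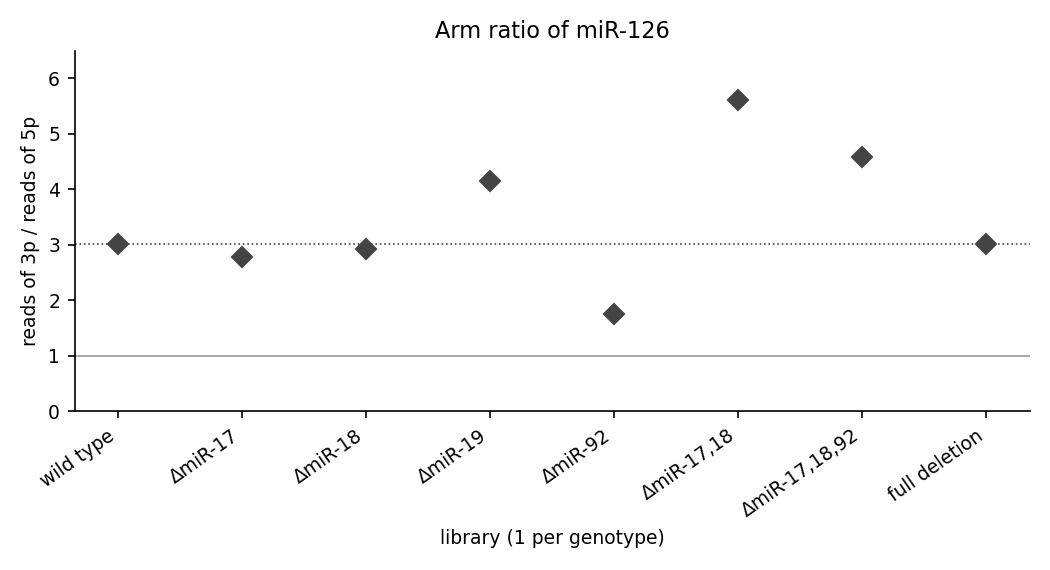
Ratio of 3p to 5p reads of miR-126 in each library, 1 per genotype; bars are 95% exact intervals, the dotted line marks wild type and the solid line equal reads of both arms. ΔmiR-92 is lowest (1.76) and ΔmiR-17,18 highest (5.61), and all 8 lie above 1.

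Libraries that lacked a given miRNA were then compared with those that kept it. The mean log2 ratio of 3p to 5p was 1.94 ± 0.48 (SD, n = 4) without miR-17 and 1.50 ± 0.51 (SD, n = 4) with it, a difference of 0.44 (two-sided exact permutation p = 0.229, Benjamini-Hochberg adjusted over the 4 tests 0.457). Without miR-18 it was 1.96 ± 0.46 (SD, n = 4) and with it 1.49 ± 0.51 (SD, n = 4), a difference of 0.47 (exact p = 0.171, adjusted 0.457). For miR-19 the values were 1.83 ± 0.32 (SD, n = 2) and 1.69 ± 0.59 (SD, n = 6), a difference of 0.14 (exact p = 0.857, adjusted 0.857). For miR-92 they were 1.54 ± 0.69 (SD, n = 3) and 1.83 ± 0.43 (SD, n = 5), a difference of -0.29 (exact p = 0.482, adjusted 0.643). The groups overlapped in all 4 comparisons. Unadjusted, the smallest p these exact designs allow is 0.0179 for miR-92, 0.0357 for miR-19 and 0.0286 for the other two. After adjustment over the 4, no order of the 8 libraries could bring any of these exact tests under 0.05 (a test alone at its smallest p would reach 0.0714 for miR-92), so they do not bear on whether the arm ratio differs. Libraries of 1 group differ in other deletions too, so the p-values reflect only how much single libraries of unlike genotypes vary.

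A limma model had 1 additive term for each deleted family, named by the miRNA in its label. Fitted to 551 miRNAs averaging 10 nRPM or more, it called neither arm for any term. edgeR and DESeq2 called neither arm either, and of the 8 arm and term pairs 0 had an unadjusted p under 0.05 with any of the 3 tools. The fitted log2 change of miR-126-3p was 0.40 ± 0.34 (SE) with loss of miR-17 (95% interval -0.40 to 1.19, limma adjusted p = 0.996) and -0.02 ± 0.34 with loss of miR-18 (-0.82 to 0.78, limma adjusted p = 0.988). It was 0.34 ± 0.34 with loss of miR-19 (-0.46 to 1.14, limma adjusted p = 0.959) and -0.31 ± 0.32 with loss of miR-92 (-1.06 to 0.44, limma adjusted p = 0.990). For miR-126-5p the 4 changes were 0.04 ± 0.49 (-1.09 to 1.16, limma adjusted p = 0.996), -0.45 ± 0.49 (-1.57 to 0.68, limma adjusted p = 0.988), 0.11 ± 0.49 (-1.02 to 1.24, limma adjusted p = 0.980) and 0.22 ± 0.46 (-0.83 to 1.28, limma adjusted p = 0.990). Every interval spans 0, and those of the 5p arm, and of the 3p arm except for miR-18, take in changes of 2-fold, so an effect of that size was not shown to be absent. The model called 2 of the 551 miRNAs (0.363%) for loss of miR-92 and 2 (0.363%) for loss of miR-18. It called 4 (0.726%) for loss of miR-19 and 4 (0.726%) for loss of miR-17. All these calls were rows of the miR-17~92 cluster itself. Outside it the lowest limma adjusted p was 0.990, 0.484, 0.569 and 0.886 for loss of miR-92, miR-19, miR-18 and miR-17.

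**Figure D3:**
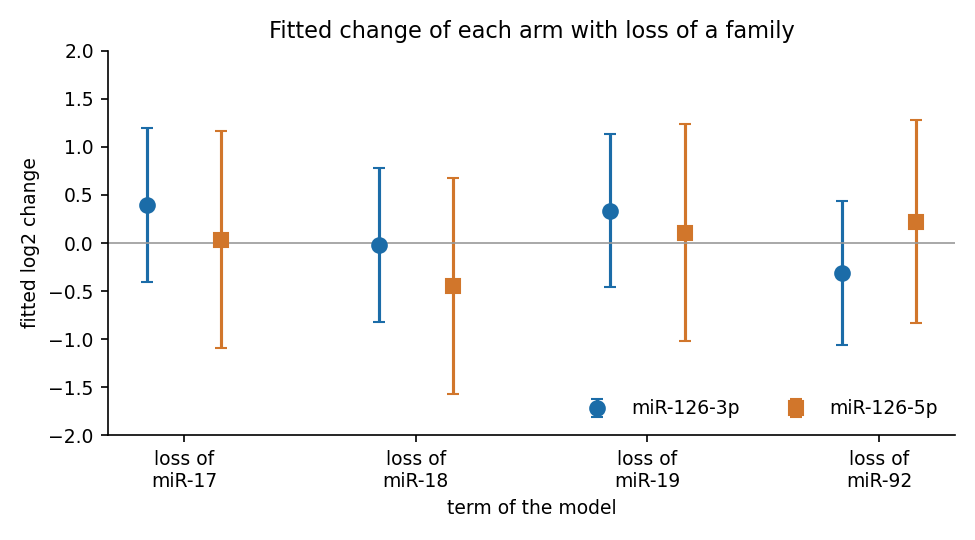
Fitted log2 change of miR-126-3p (circles) and miR-126-5p (squares) with loss of each family, from the limma model over 8 libraries. Bars are 95% intervals. All 8 intervals cross 0, and those of the 5p arm are the wider.

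The series holds each loss on 2 backgrounds. An arm of miR-126 went opposite ways on them in 4 of 8 pairs of an arm and a loss, which is near the share among all miRNAs averaging 100 nRPM or more (49.7% of 1316 pairs) and so no result about the arms. Loss of miR-17 left the 3p arm at 1.22 times its level from wild type to ΔmiR-17 and at 2.03 times from ΔmiR-18 to ΔmiR-17,18. The 5p arm stood at 1.32 and 1.06 times its level in the same pairs, so that the arm ratio moved by log2 -0.11 in the first pair and 0.94 in the second. With totals outside the cluster the 5p change of the second pair turned from log2 0.080 to -0.017, and with TMM factors the 3p change from wild type to ΔmiR-92 from 0.061 to -0.027. Loss of miR-18 took the 3p arm to 0.913 from wild type and to 1.52 from ΔmiR-17, and the 5p arm to 0.940 and 0.756. Loss of miR-92 left the 3p arm at 1.04 and the 5p arm at 1.78 from wild type, but both were lower from ΔmiR-17,18 to ΔmiR-17,18,92, at 0.406 and 0.496. Loss of miR-19 took the 5p arm to 0.834 from wild type and to 3.06 from ΔmiR-17,18,92 to the full deletion, and the 3p arm to 1.15 and 2.01. With 1 library per genotype, these differences between backgrounds were not tested, and pairs that share a library are not independent.

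**Figure D4:**
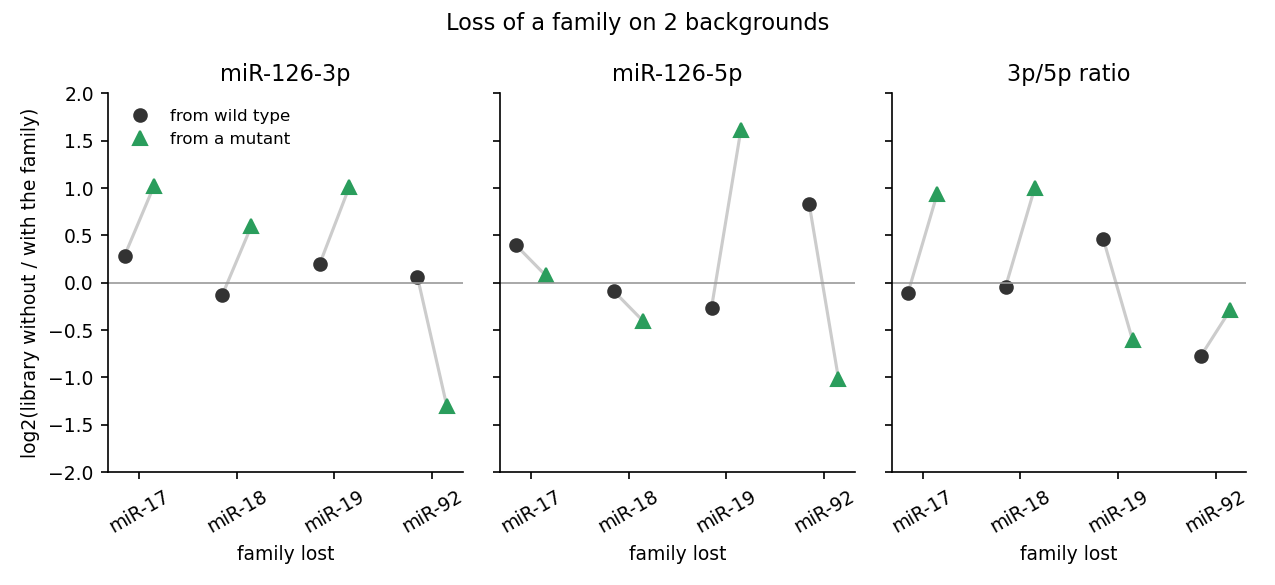
Log2 change of miR-126-3p, miR-126-5p and their ratio on loss of each family, from wild type (circles) and from a mutant that already lacked others (triangles). Each point compares 1 library with 1. The 5p arm shows the widest pairs, log2 -0.26 and 1.61 for miR-19 and 0.83 and -1.01 for miR-92.

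Set beside other hairpins, the arm ratio of miR-126 was neither among the most constant nor among the most variable. Of 75 hairpins whose arms both averaged 100 nRPM or more, miR-126 was 30th in order of the SD of log2 of 3p over 5p, at 0.52 against a median of 0.63, and 38.7% had a smaller SD, or 22.4% when ΔmiR-92 was left out. Next below it stood miR-324 (0.50) and miR-30e (0.51), and next above it miR-380 (0.52) and miR-302a (0.52). The lowest SD was that of miR-486 (0.03), whose reads nearly equal those of miR-3107, and the highest that of miR-17 (1.46), which was itself deleted in 4 libraries. Likewise miR-374 and miR-374c, and miR-299 and miR-299b, had nearly equal values with the arms swapped. miR-374-5p and miR-374c-3p both averaged 1443 nRPM, and miR-136-3p and miR-3071-5p both averaged 348. The rank and the shares given here thus count some values more than once. In ΔmiR-17,18, where the ratio of miR-126 was highest, it lay log2 0.90 above wild type, and 56.8% of the other 74 hairpins differed from wild type by more, in either direction. In ΔmiR-92, where it lay 0.77 below, 44.6% of the others differed by more. In the full deletion, where it was 0.01 above, 97.3% did.

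**Figure D5:**
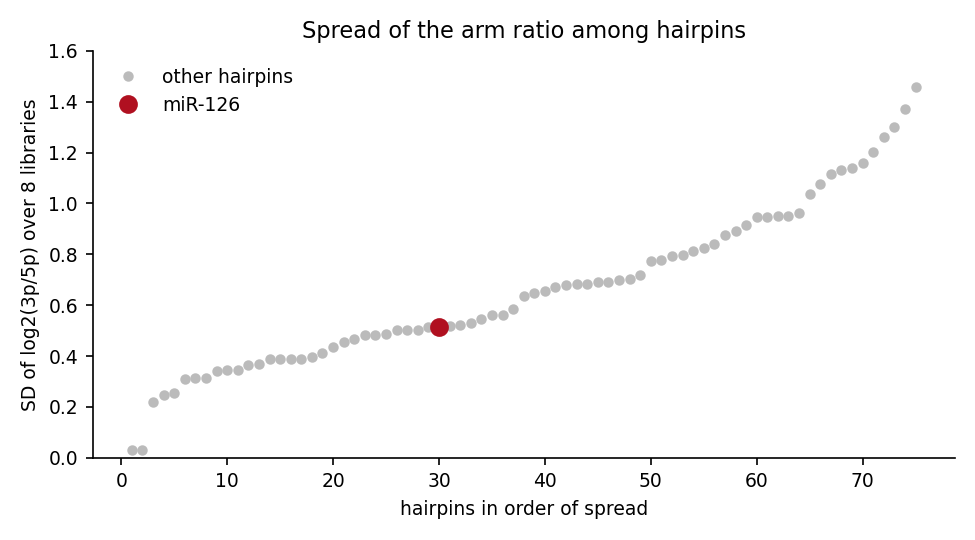
SD over 8 libraries of log2 of 3p over 5p for 75 hairpins with both arms averaging 100 nRPM or more, in order; miR-126 is the larger point. miR-126 is 30th, at an SD of 0.52. Some hairpins carry nearly the same values as another, so not all points are separate.

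The miRNAs whose levels ran most like each arm were ranked by Pearson r of log2 levels over the 8 libraries, as a description of points that share library and scaling. Among 328 miRNAs averaging 100 nRPM or more, those most like miR-126-3p were miR-186-5p (r = 0.847), miR-152-3p (0.788), miR-679-5p (0.781), miR-146b-5p (0.780) and miR-210-3p (0.728), the last known to be induced by low oxygen. Those most like miR-126-5p were miR-30d-5p (0.782), miR-148b-3p (0.771), miR-146b-5p (0.760), miR-708-5p (0.745) and miR-374-5p (0.726). miR-146b-5p appears in both lists. The arms themselves were less alike, with r = 0.489, so that miR-126-5p was 47th for the 3p arm and miR-126-3p 32nd for the 5p arm.

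Other miRNAs studied in vessel growth, none specific to endothelium, were followed as a list of 16. All 16 were measured, led by miR-10b-5p (32179 to 46569 nRPM) and miR-10a-5p (21134 to 29145 nRPM), and their summed level ranged 1.26-fold, from 83039 nRPM in ΔmiR-17,18,92 to 104506 in ΔmiR-19. A sum evens out its members: singly they ranged between 1.38-fold (miR-10a-5p) and 3.81-fold (miR-132-3p, named after its values had been seen), with a median of 2.11-fold, and 4 of the 16 ranged more than miR-126-3p and 2 more than miR-126-5p. limma, edgeR and DESeq2 called 0 of the 16 in either direction for any term, and of 64 miRNA and term pairs 2, 1 and 3 had an unadjusted p under 0.05. Their median log2 changes were -0.09, 0.06, 0.03 and -0.01 with loss of miR-92, miR-19, miR-18 and miR-17, beside 0.01, -0.01, 0.02 and -0.0035 over all 551. Apart from miR-126 the lists held no miRNA that marks endothelium alone, so its label as endothelial rests on background and was not checked in these data.

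Markers of other cells varied between the same single libraries. Muscle miRNAs, 7 of 7 measured and led by miR-1a-3p and miR-133a-3p, summed to between 2227 nRPM in ΔmiR-17 and 6128 in ΔmiR-17,18, with 3067 in wild type. They were also above wild type in ΔmiR-92 (5226), where the 5p arm was highest, and in ΔmiR-17,18,92 (4725), where both arms were lowest. The heart miRNAs of the list, named after their values had been seen, did not all run together. miR-208a-3p stood at 6.27 nRPM in wild type, 175.5 for ΔmiR-17,18 and 159 for ΔmiR-17,18,92. miR-499-5p was likewise higher in these mutants, at 10.3, 60.3 and 43.9 nRPM, while miR-208b-3p stood at 24.6, 20.5 and 22.5. Blood miRNAs (9 of 9, led by miR-486-5p and miR-142-5p) summed to between 1508 nRPM in ΔmiR-17,18,92 and 3504 in ΔmiR-18. Their sum was 2295 in wild type and 2079 in the full deletion. The full deletion had 0 reads of the 2 least abundant, miR-223-3p and miR-150-5p, named for that after their values had been seen, which stood at 3.13 and 1.41 nRPM in wild type. MiRNAs of smooth muscle and pericytes (4 of 4, led by miR-143-3p and miR-145-5p) summed to between 10106 nRPM in the full deletion and 18203 in ΔmiR-19. Epithelial miRNAs (5 of 5, led by miR-141-3p and miR-200c-3p) lay between 7745 (ΔmiR-17,18) and 12538 nRPM (full deletion). Neural miRNAs (3 of 3, led by miR-9-5p and miR-124-3p) lay between 1741 nRPM in ΔmiR-92 and 5132 in ΔmiR-17. limma, edgeR and DESeq2 called 0 of the 26 members tested from these 5 lists for any term, with 3, 2 and 4 of 104 pairs at an unadjusted p under 0.05. The part of tissue makeup in the levels of miR-126 was not tested.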

How the data were processed

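Small RNA libraries of 8 genotypes and 1 library of undetermined reads were used. Tools listed in the submitters' processing notes are featureCounts from Subread 1.4.2, SAMtools 0.1.19 and STAR 2.2.0, with mm9 as the build. Parameters, strand setting and handling of reads that map more than once are not given in the sources used here. As deposited, the values are a signal per mature miRNA, reads that the authors divided by 1 factor per library: within 0.001 reads, 100% of the values came out whole, and the factors matched median-ratio size factors of all 9 libraries. Deposited values were multiplied by 0.1159 to give nRPM. Duplicate rows of an accession were merged where their totals lay within 10% of each other (1046 to 986 rows).

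limma 3.58.1 (R 4.3.3, trend, 3 residual degrees of freedom) was fitted on log2(nRPM + 1), which understates changes of low miRNAs, with Benjamini-Hochberg adjustment over 551 miRNAs and a threshold of 0.05. Unadjusted p was under 0.05 for 9, 21, 25 and 17 miRNAs in the terms of miR-92, miR-19, miR-18 and miR-17, in that order. The script was tested on simulated data. Exact tests enumerated all groupings of the libraries (Python 3.11.15). On the recovered reads edgeR 4.0.16 called 2, 4, 0 and 4 miRNAs for these terms and DESeq2 1.42.0 called 2, 6, 3 and 6, none of them an arm of miR-126. Outside the rows of the cluster limma and edgeR called none, and DESeq2 went under 0.05 only for miR-19 (lowest DESeq2 adjusted p = 0.035). Other scalings, pseudocounts, no filter on low values, and leaving out each library were tried. The members and lists were chosen with earlier results of these data known. Named were both arms, the 5 miRNAs most like each, the hairpins next to miR-126 and at the ends of the order of arm-ratio spread, and the 2 most abundant of each list. Outside this rule, miR-208a-3p, miR-208b-3p, miR-499-5p, miR-223-3p, miR-150-5p, miR-132-3p and the deleted miRNAs that check the labels are named. So are hairpins whose values repeat those of another: miR-3107, miR-374, miR-374c, miR-299, miR-299b, miR-136 and miR-3071. Read intervals are exact Poisson and ratio intervals Clopper-Pearson, at 95%, and cover counting error only, since reads without molecular identifiers are not independent molecules.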

Additional observations from a re-analysis of the deposited data

Results flagged for a closer look

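The loss of 1 family went with opposite directions on 2 backgrounds for 7 of 12 measures (3 for each of 4 losses). Each change compares 1 library with 1, and these differences were not tested. Opposite directions were common elsewhere too: 49.7% of pairs of a loss and a miRNA averaging 100 nRPM or more, and 53.3% of pairs of a loss and the arm ratio of a hairpin. The arm ratio of miR-126 moved by log2 -0.11 from wild type to ΔmiR-17 and by 0.94 from ΔmiR-18 to ΔmiR-17,18. With loss of miR-18, miR-126-3p moved by -0.13 from wild type and by 0.60 from ΔmiR-17, and the arm ratio by -0.042 and 1.01. With loss of miR-92, miR-126-3p moved by 0.061 from wild type and by -1.30 from ΔmiR-17,18, and miR-126-5p by 0.83 and -1.01. The first of these, 0.061, turned to -0.027 with TMM factors, which ends the opposition for the 3p arm. With totals outside the cluster the 5p change from ΔmiR-18 to ΔmiR-17,18, 0.080, turned to -0.017, which adds an opposite pair for the loss of miR-17. With loss of miR-19, miR-126-5p moved by -0.26 from wild type and by 1.61 from ΔmiR-17,18,92 to the full deletion, and the arm ratio by 0.46 and -0.60.

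The library of undetermined reads, which enters no comparison, held miR-126-3p at 10823 nRPM, above the 8047 nRPM of wild type.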

How the results depend on the processing

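No paired analysis was possible because each genotype had 1 library. Over the 136 alternative fits of the 2 arms and 4 terms (limma under other settings, edgeR and DESeq2) neither arm passed, with adjusted p between 0.747 and 1. The term of miR-18 for miR-126-3p turned to 0.0046 with DESeq2, and that of miR-17 for miR-126-5p to -0.042 with totals outside the cluster. The cause was not tested. Leaving out each library gave, for miR-126-3p, 0.15 to 0.74 (miR-17), -0.27 to 0.32 (miR-18), 0.05 to 0.68 (miR-19) and -0.99 to -0.02 (miR-92). For miR-126-5p it gave -0.38 to 0.50, -0.86 to 0.014, -0.80 to 1.15 and -0.70 to 0.79. The differences in arm ratio lay at 0.21 to 0.62, 0.25 to 0.66, -0.091 to 0.37 and -0.63 to 0.066. The fold range of miR-126-3p was 2.2 with plain totals, 2.42 with TMM, 2.51 with median-ratio factors and 2.32 with totals outside the cluster, and 2.01 to 2.46 with 1 library left out. That of miR-126-5p was 3.29 with plain totals and 3.42 with TMM, and 2.14 to 3.61 with 1 left out, lowest without ΔmiR-17,18,92. That of their sum, 2.38, was 2.0, 2.34, 2.43 and 2.24 under the 4 scalings, and 1.78 to 2.38 with 1 left out. That of the arm ratio was 2.01 to 3.18, lowest without ΔmiR-92. The share of hairpins with a smaller spread was 29% at a minimum of 10 nRPM, 45.8% at 500, and 22.4% to 50.7% with 1 library left out, lowest without ΔmiR-92. Each arm of miR-126 had 17068 reads or more in every genotype. The part of depth in the spread of less abundant hairpins was not tested.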

Other observations

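The library of undetermined reads, which the labels put in no genotype, held 3024805 reads. Of these, 30761 were miR-126-3p and 7461 miR-126-5p, or 10823 and 2625 nRPM, with a ratio of 4.12.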
